A study of Homo sapiens with 6 samples.

Results

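The genes described here are 10 chemokine genes of the CXC and CC families in human liver cancer cells: CXCL1, CXCL2, CXCL3, CXCL5, CXCL6, CXCL8, CXCL10, CXCL16, CCL2 and CCL20. They were taken by gene symbol from the 24432 genes in the expression tables, and all 10 were listed there. Total RNA was sequenced from PLC/PRF/5, an established hepatocellular carcinoma cell line, in 3 lenvatinib-sensitive and 3 lenvatinib-resistant libraries. The sensitive cells are labelled wild type and control, and the resistant cells are labelled as treated with lenvatinib, an inhibitor of VEGF, FGF and other receptor tyrosine kinases. Both groups were grown in DMEM with 10% fetal bovine serum, and resistance was raised over passages in increasing drug, which the labels give as a start of 20 µmol/L, steps of 0.5 mmol/L and an end at 40 mmol/L. In the labels, the starting dose and the later ones stand in different units that do not match. Since only the resistant cells carry the drug label, resistance and exposure to the drug cannot be told apart, and the labels give no number of independently selected lines.

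Chemokines are small secreted proteins that bind G protein-coupled receptors and direct the movement of leukocytes. CXCL1, CXCL2, CXCL3, CXCL5, CXCL6 and CXCL8 carry a glutamate-leucine-arginine (ELR) motif before the first cysteines, act on CXCR2 (CXCL6 and CXCL8 also on CXCR1) and attract neutrophils. CXCL10 is an interferon-induced ligand of CXCR3, CXCL16 is a transmembrane ligand of CXCR6 that can be shed, CCL2 attracts monocytes through CCR2, and CCL20 is the ligand of CCR6. Many of these genes are induced by interleukin-1 and tumour necrosis factor through the transcription factor NF-kB, and in the liver they are known from hepatocytes, stellate cells and tumour cells.

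The 6 ELR genes lie in 1 cluster on chromosome 4, and the sequence just before their start sites is shown because it groups them. RefSeq promoters on GRCh38.p14 were matched for 8 of the 10 genes, those other than CXCL16 and CCL2. The windows below hold the 140 bases before each start site, written 5′ to 3′ on the gene's strand. Capitals mark the letters GGAATTTCC, a form of the kB site bound by NF-kB, and in CXCL8 also TGACTCA, a form of the AP-1 site.
CXCL1, chr4:73869253-73869392, plus strand: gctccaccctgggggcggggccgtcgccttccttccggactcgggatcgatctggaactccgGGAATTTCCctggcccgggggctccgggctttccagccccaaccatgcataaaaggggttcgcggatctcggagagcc
CXCL2, chr4:74099196-74099335, minus strand: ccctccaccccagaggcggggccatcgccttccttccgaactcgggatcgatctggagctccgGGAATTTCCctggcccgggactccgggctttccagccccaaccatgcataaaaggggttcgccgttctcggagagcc
CXCL3, chr4:74038690-74038829, minus strand: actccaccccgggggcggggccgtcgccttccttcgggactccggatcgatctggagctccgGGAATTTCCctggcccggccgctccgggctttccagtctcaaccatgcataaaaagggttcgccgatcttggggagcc
CXCL5, chr4:73998678-73998817, minus strand: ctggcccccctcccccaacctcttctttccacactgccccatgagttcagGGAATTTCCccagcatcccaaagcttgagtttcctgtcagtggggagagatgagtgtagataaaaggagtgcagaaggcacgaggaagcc
CXCL6, chr4:73836538-73836677, plus strand: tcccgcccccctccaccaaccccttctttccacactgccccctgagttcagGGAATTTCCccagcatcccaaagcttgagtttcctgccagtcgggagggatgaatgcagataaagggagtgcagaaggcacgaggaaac
CXCL8, chr4:73740429-73740568, plus strand: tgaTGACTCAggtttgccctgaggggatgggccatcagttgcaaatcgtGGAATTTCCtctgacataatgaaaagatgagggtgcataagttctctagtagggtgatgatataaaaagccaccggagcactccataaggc
The windows of CXCL1, CXCL2 and CXCL3 were 89.2% to 92.8% identical to each other, and those of CXCL5 and CXCL6 were 91.4% identical. Between these 2 sets identity was 60.5% to 66.9%. All 6 windows held GGAATTTCC on the gene's own strand, with its first base 77 to 91 bases before the start. Over whole table entries, from 250 bases before to 50 after the start and on both strands, GGAATTTCC was found in 7 of the 8 matched promoters, the seventh being that of CXCL10, and in 0.461% of all 35116 promoters. TGANTCA stood in the CXCL8 promoter alone among the 8 (7.71% of all promoters), and TATAAA in those of CXCL8 and CCL20 (11.5% of all). TTGCNNAA, a C/EBP form, was found in the CXCL2 promoter (10.5% of all), and GAAANNGAA, an interferon response form, in those of CXCL2, CXCL3 and CXCL10 (8.11% of all). The matches within each set of similar windows are not independent of each other. A match describes letters and says nothing about binding in these cells.

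Values were deposited as 1 number per gene and library in the form of FPKM, which is scaled for transcript length and library size. Every value of the 10 genes was a whole multiple (to within 0.001) of what 1 read was worth for that gene, so the number of reads behind it could be read off. This worth differed by at most 3.46% between the libraries, so depth differed little. Set against transcript length, it implied 35259819 to 47571885 reads a library, depending on which of the 10 genes was used. CXCL10 had only 1 value above 0, so its whole multiple was fixed in advance. Read as 1 read, that value implied 39378568 reads a library, within the range of the other genes. The 3 resistant libraries and the first 2 sensitive ones correlated within their groups at Pearson's r of 0.994 to 0.996 over tested genes on the log2(FPKM + 1) scale, whereas sensitive replicate 3 reached 0.952 and 0.964 with the other sensitive libraries. Between the groups r was 0.680 to 0.706. Hepatocyte markers were nearly absent from the resistant group, although it carries the same cell line label: their sum over 10 genes was 11.1 to 27.3 FPKM there against 2907 to 2996 FPKM in the sensitive libraries, and albumin (ALB) was listed at 0 in 2 of the 3. In bulk RNA, fewer cells of a kind and less RNA per cell cannot be told apart. The labels do not say that the libraries of a group came from separate cultures, so p-values measure the spread between these libraries only.

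In the resistant cells CXCL1, CXCL2, CXCL3 and CXCL8 rose, CXCL5, CXCL6 and CXCL16 fell, and CCL20 did not pass the test. CCL2 and CXCL10 were below 0.5 FPKM in every library and were not tested. Of the 8 genes tested, 7 passed limma's test at a threshold of 0.05, with p-values adjusted over all 11694 tested genes by the Benjamini-Hochberg method. Of all tested genes 67.7% passed, 35.2% as higher and 32.5% as lower, so a chemokine that passed was no exception among genes here. Of the 8, 6 passed with at least a 2-fold change, against 38.2% of all tested genes. The groups did not overlap for 7 of the 8, against 74.4% of all tested genes. The median log2 fold change of the 8 was 0.69, beside 0.08 over all tested genes. These counts include CXCL5, which passed the filter on low values through the sensitive libraries alone, so its call is a description rather than support. Fold changes below are resistant over sensitive on the log2(FPKM + 1) scale, which understates the change of genes near 0.

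CXCL1, also known as GRO-alpha, was the most abundant of the 10 in the resistant cells. Sensitive replicates 1, 2 and 3 had 23.1, 25.5 and 23.2 FPKM, and resistant replicates 1, 2 and 3 had 315, 307 and 287 FPKM. Every resistant library lay far above every sensitive one, and the spread within each group was small. The means were 23.9 ± 1.36 and 303 ± 14.5 FPKM (SD, n = 3), a 12.7-fold difference. The log2 fold change was 3.61 (SE 0.0942, limma adjusted p = 4.63e-07), and 1.85% of tested genes had a higher one. The counts behind these values were 1054 to 1199 reads in the sensitive and 13270 to 14457 in the resistant libraries.

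CXCL2, or GRO-beta, had the largest log2 fold change of the 8 tested genes. The sensitive libraries had 3.53, 1.81 and 4.23 FPKM and the resistant libraries 67.6, 73.5 and 69.3 FPKM. The sensitive values rest on 81 to 183 reads and varied by 39.0% (coefficient of variation), whereas the resistant values rest on 2951 to 3229 reads and varied by 4.36%. The groups did not overlap, and the means of 3.19 ± 1.25 and 70.1 ± 3.06 FPKM (SD, n = 3) differed 22.0-fold. The log2 fold change was 4.13 (SE 0.230, limma adjusted p = 7.48e-06).

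CXCL3, or GRO-gamma, was the least abundant of the ELR genes that rose. It stood at 1.36, 1.09 and 2.21 FPKM in the sensitive libraries and rose to 12.1, 13.7 and 9.08 FPKM in the resistant libraries. Resistant replicate 3 was the lowest of its group for CXCL1 and CXCL3 alike, and it was still above all sensitive libraries. The means were 1.55 ± 0.583 and 11.6 ± 2.35 FPKM (SD, n = 3), with a log2 fold change of 2.31 (SE 0.215, limma adjusted p = 8.65e-05). CXCL1, CXCL2 and CXCL3 have similar transcripts (81.8% to 90.6% identity in GENCODE release 29), and how the authors treated reads that match several genes is not given in the sources used here. Of the 50-base stretches of CXCL1, 5.73% recurred in CXCL2, of those of CXCL2 4.62% recurred in CXCL3, and no stretch of 100 bases was shared by any pair of them. Transcript identity was counted over aligned bases with gaps left out, and by this measure CXCL5 and CCL2 reached 78.5%.

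CXCL8, interleukin-8, was already abundant in the sensitive cells and rose the least of the 4. Its levels were 49.0, 45.9 and 67.2 FPKM in the sensitive libraries and 133, 139 and 124 FPKM in the resistant libraries. Sensitive replicate 3 was the highest of its group, yet below the lowest resistant library. The means were 54.1 ± 11.5 and 132 ± 7.20 FPKM (SD, n = 3), with a log2 fold change of 1.29 (SE 0.156, limma adjusted p = 0.000328). The 95% intervals of the log2 fold changes of CXCL8 (0.92 to 1.66) and CXCL1 (3.38 to 3.83) did not overlap. CXCL8 rested on 3791 to 5364 reads in the sensitive and 10095 to 11238 in the resistant libraries.

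**Figure D1:**
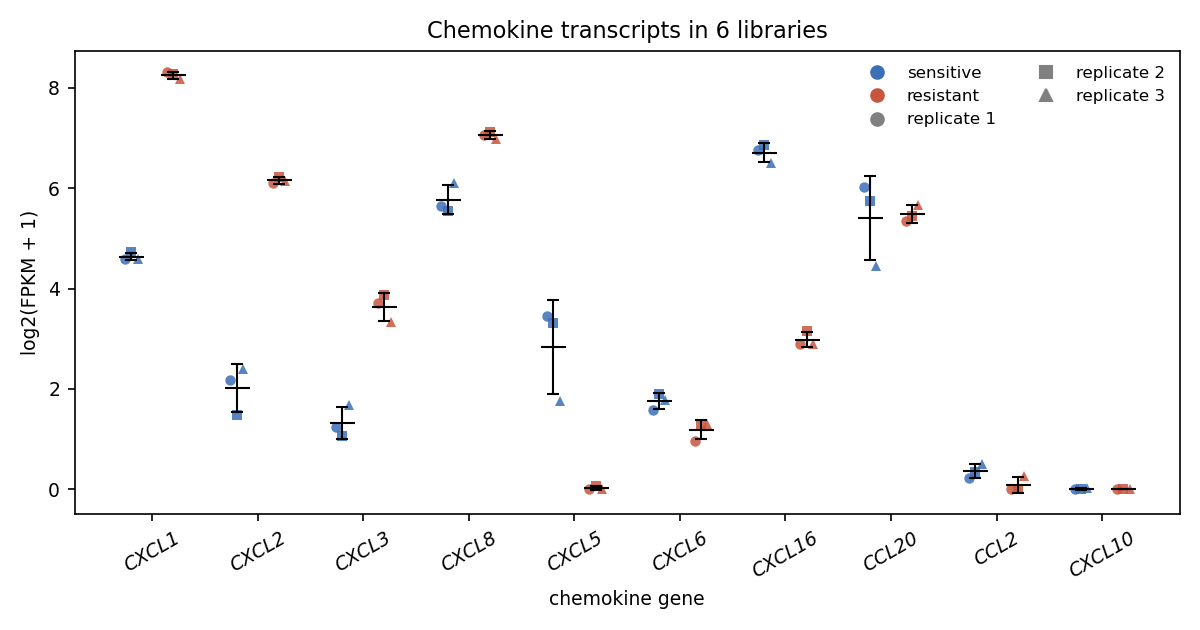
Level of the 10 chemokine genes in each of the 6 libraries as log2(FPKM + 1), where points are libraries, with a shape per replicate, and black lines are group means with their SD (n = 3). CXCL1, CXCL2, CXCL3 and CXCL8 are higher in all 3 resistant libraries, CXCL5, CXCL6 and CXCL16 are lower, and the groups overlap for CCL20.

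CXCL5, or ENA-78, was all but lost from the resistant cells. The sensitive libraries had 9.88, 8.91 and 2.40 FPKM, from 954, 870 and 227 reads. The resistant libraries were listed at 0, 0.0521 and 0 FPKM, the middle value resting on 5 reads. Sensitive replicate 3 was the lowest of its group by a wide margin, and still above every resistant library. The log2 fold change was -2.82 (SE 0.423, limma adjusted p = 0.000955), and it was -5.72 with a pseudocount of 0.1 in place of 1. The only resistant library with reads of CXCL5, replicate 2, also had the highest hepatocyte marker sum of its group, with SERPINA1 at 20.9 FPKM against 10.0 and 8.66 FPKM, and the part of this in the 5 reads was not tested.

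CXCL6, or GCP-2, is the gene most like CXCL5 in sequence (84.0% transcript identity), and it fell by less. Its levels were 2.00, 2.74 and 2.42 FPKM in the sensitive and 0.964, 1.44 and 1.47 FPKM in the resistant libraries. The highest resistant library lay below the lowest sensitive one. The means were 2.39 ± 0.371 and 1.29 ± 0.283 FPKM (SD, n = 3), with a log2 fold change of -0.57 (SE 0.139, limma adjusted p = 0.00946). Counts were 122 to 169 reads in the sensitive and 58 to 89 in the resistant libraries. The call was lost when the test asked for more than a 1.5-fold change (limma adjusted p = 0.901). No stretch of 50 bases was shared by CXCL5 and CXCL6, and in GENCODE CXCL6 overlaps the pseudogene PPBPP1 on the same strand.

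CXCL16 was the most abundant of the 10 genes in the sensitive cells and the sixth in the resistant cells. The sensitive libraries had 108, 115 and 89.0 FPKM and the resistant libraries 6.41, 7.92 and 6.47 FPKM. All resistant values lay far below all sensitive values, with the same relative spread in both groups (12.8% and 12.3%). The means were 104 ± 13.3 and 6.93 ± 0.854 FPKM (SD, n = 3), which is 15.0-fold lower in the resistant cells, with a log2 fold change of -3.72 (SE 0.139, limma adjusted p = 1.36e-06). Of all tested genes 1.45% had a lower log2 fold change. CXCL16 rested on 8271 to 11028 reads in the sensitive and 602 to 748 in the resistant libraries. It overlaps MED11, a Mediator subunit gene on the opposite strand, at 18.2 FPKM in the sensitive and 8.78 FPKM in the resistant cells, and reads of the 2 genes cannot be told apart where they overlap if strand was not used.

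CCL20, known as MIP-3-alpha, had similar means in both groups and very different spreads. It stood at 63.7, 52.6 and 20.8 FPKM in the sensitive libraries, and the resistant libraries had 39.4, 42.7 and 50.002 FPKM. Sensitive replicates 1 and 2 lay above every resistant library and sensitive replicate 3 below every one. The means were 45.7 ± 22.2 and 44.0 ± 5.44 FPKM (SD, n = 3), with a log2 fold change of 0.08 (95% interval -0.85 to 1.01, limma adjusted p = 0.861). Without sensitive replicate 3 the log2 fold change was -0.39 and passed as lower (limma adjusted p = 0.0146). The values rest on 674 to 2107 reads in the sensitive and 1285 to 1645 reads in the resistant libraries.

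Sensitive replicate 3 was the lowest sensitive library for CXCL5, CXCL16 and CCL20 and the highest for CXCL2, CXCL3 and CXCL8. Without it the log2 fold changes were -3.35 for CXCL5, -3.83 for CXCL16 and -0.39 for CCL20. They were 4.32 for CXCL2, 2.49 for CXCL3 and 1.46 for CXCL8.

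CCL2 and CXCL10 were near 0. CCL2 had 0.170, 0.269 and 0.418 FPKM in the sensitive libraries, from 5, 8 and 12 reads. The resistant libraries were listed at 0, 0 and 0.205 FPKM, the last from 6 reads, and so overlapped the sensitive range. CXCL10 was listed at 0 in 5 libraries and at 0.0220 FPKM in sensitive replicate 3, which is 1 read. A difference in either gene was not detectable at this depth.

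**Figure D2:**
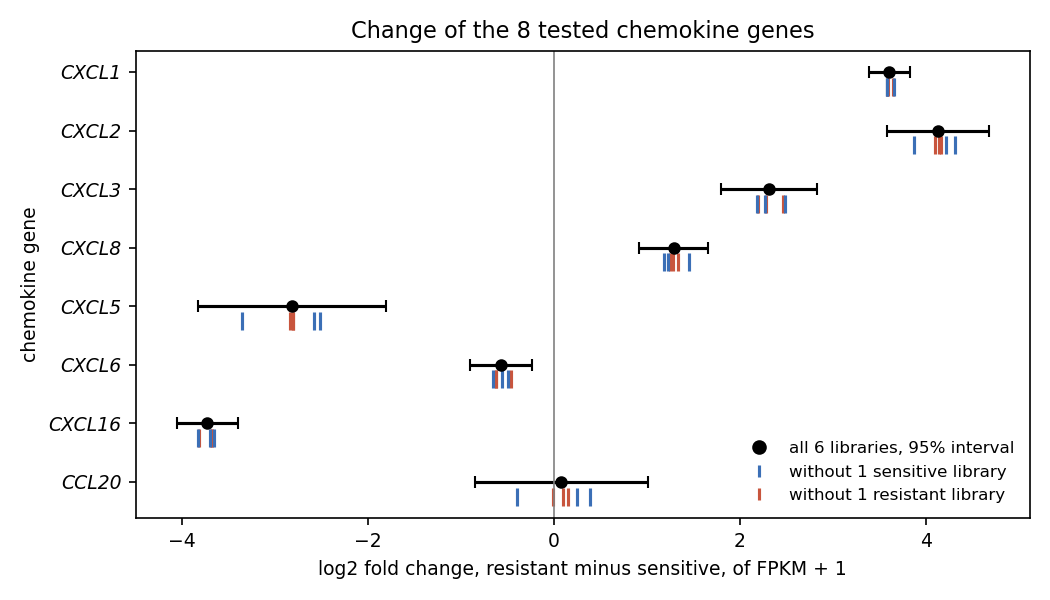
Log2 fold change (resistant minus sensitive, on log2(FPKM + 1)) of the 8 tested chemokine genes as black points with 95% intervals, and coloured ticks below each for the fits without 1 library. CXCL2 and CXCL1 lie highest at 4.13 and 3.61, CXCL16 and CXCL5 lowest at -3.72 and -2.82, and the interval of CCL20 spans 0.

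The order of the 10 genes by level changed between the groups. In the sensitive cells the mean levels ran from CXCL16 through CXCL8, CCL20, CXCL1, CXCL5, CXCL2, CXCL6, CXCL3 and CCL2 down to CXCL10. Neighbours in that order were hard to separate, since the ranges of CXCL8 and CCL20, CCL20 and CXCL1, CXCL5 and CXCL2, CXCL2 and CXCL6, and CXCL6 and CXCL3 overlapped. In the resistant cells the order was CXCL1, CXCL8, CXCL2, CCL20, CXCL3, CXCL16, CXCL6, CCL2, CXCL5 and CXCL10, and no neighbouring ranges overlapped among the first 7.

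The summed level of the 10 genes was 242 ± 26.3 FPKM in the sensitive and 569 ± 19.4 FPKM in the resistant cells (SD, n = 3). The 6 neutrophil-attracting ELR genes made up 92.2 ± 8.36 FPKM of it in the sensitive and 518 ± 23.7 FPKM in the resistant cells. CXCL16 accounted for 41.4% to 45.2% of the 10-gene sum in the sensitive libraries and for 1.12% to 1.35% in the resistant ones. CXCL1 went the other way, from 8.85% to 10.9% of the sum to 52.3% to 54.8%. The share of CXCL2 was 0.715% to 2.00% and then 11.8% to 12.7%. CXCL8 held 18.8%, 18.1% and 31.7% in sensitive replicates 1, 2 and 3 and 22.7% to 23.7% in the resistant libraries, which lay above the sensitive shares other than that of replicate 3. The ratio of CXCL1 to CXCL8 was 0.344 to 0.554 in the sensitive and 2.22 to 2.36 in the resistant libraries. These shares describe transcript levels per length, not protein.

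**Figure D3:**
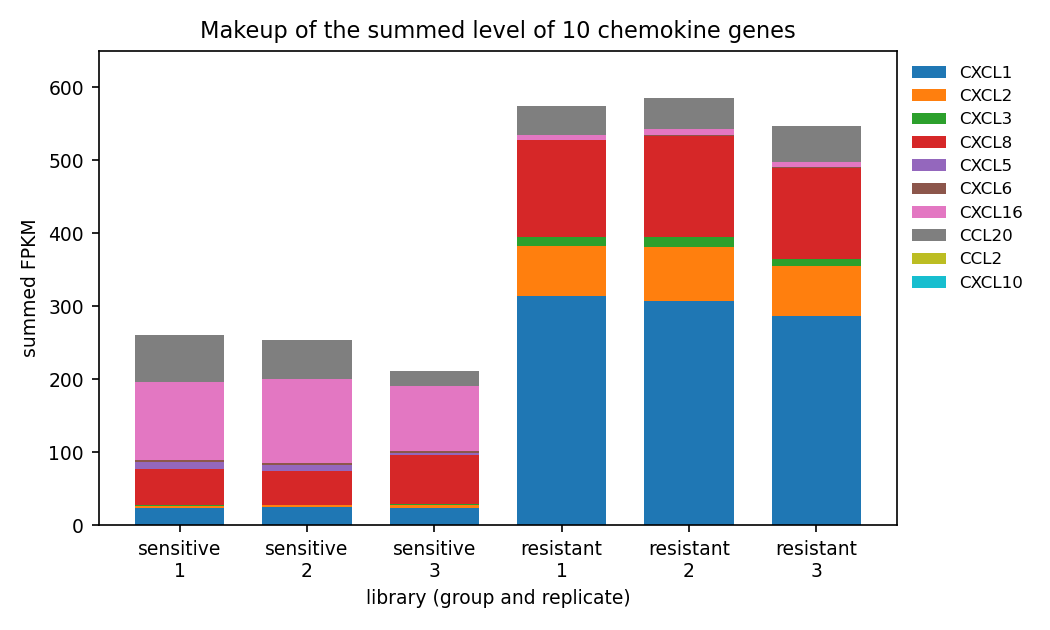
Summed FPKM of the 10 chemokine genes in each library, stacked by gene. The sensitive bars reach 212 to 261 FPKM, of which CXCL16 fills 41.4% to 45.2%, and the resistant bars reach 547 to 585 FPKM, of which CXCL1 fills 52.3% to 54.8%.

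The ELR genes lie close together on chromosome 4, and the 2 that fell stand between those that rose. In the RefSeq gene order of GRCh38.p14 they follow as CXCL8, CXCL6, CXCL1, CXCL5, CXCL3 and CXCL2, and other genes may stand between them. Their log2 fold changes in this order were 1.29, -0.57, 3.61, -2.82, 2.31 and 4.13. Between ALB and BTC the order lists 35 genes, of which 20 were in the tables and 13 were tested. Of these 13, 7 passed as higher, 4 as lower and 2 did not pass, and the median log2 fold change was 0.58. For 5 of them 1 group was below 1 FPKM throughout, so that they could be tested only through the group where they are high. Upstream of the cluster, ALB and AFP, the genes of albumin and alpha-fetoprotein, fell, with log2 fold changes of -2.03 and -1.22. Beyond CXCL2 lie MTHFD2L, a mitochondrial folate enzyme gene, and 4 genes of EGF receptor ligands, of which EPGN (epigen), named after its values were seen, did not exceed 0.0788 FPKM in any library. EREG (epiregulin) had 18.3, 14.5 and 19.7 FPKM in the sensitive and 112, 120 and 118 FPKM in the resistant libraries, and it rose with a log2 fold change of 2.68 (limma adjusted p = 4.13e-06). AREG (amphiregulin) had 120, 112 and 394 FPKM in the sensitive and 254, 258 and 230 FPKM in the resistant libraries, and it did not pass (log2 fold change 0.50, limma adjusted p = 0.365). Sensitive replicate 3 was the highest of all 6 libraries for AREG, and without it AREG passed as higher (log2 fold change 1.09, limma adjusted p = 3.26e-06). BTC (betacellulin) was listed at 0 in the sensitive libraries and stood at 2.54, 3.17 and 3.68 FPKM in the resistant ones. MTHFD2L rose from a mean of 0.389 to 1.08 FPKM, and LOC105377276 stood at 2.60 and 2.47 FPKM and did not pass.

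**Figure D4:**
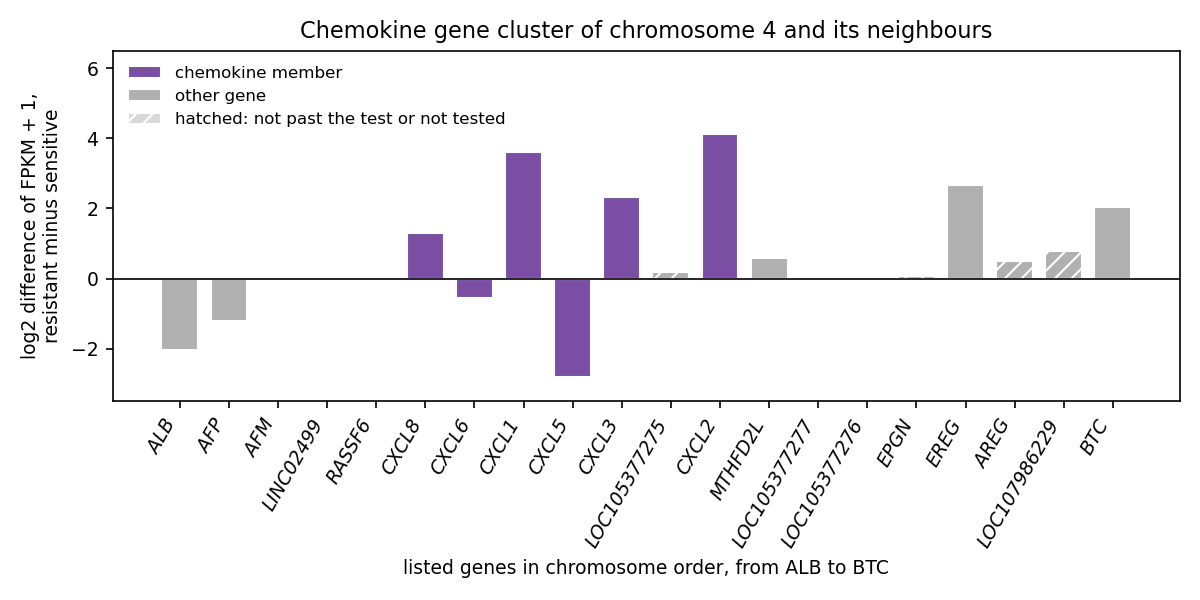
Difference of group means (resistant minus sensitive, on log2(FPKM + 1)) for the 20 listed genes between ALB and BTC in RefSeq gene order, with the chemokine genes in purple, and genes that did not pass or were not tested hatched. The chemokine bars alternate in sign from CXCL8 to CXCL3 and end with CXCL2, the highest at 4.13.

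The gene lists that follow are to be read against all tested genes, of which 67.7% passed, 35.2% as higher and 32.5% as lower, with a median log2 fold change of 0.08. Of 38 other chemokine genes, 24 were in the tables and 4 were tested, of which 2 rose and 2 fell (median log2 fold change 0.06). CXCL12, CCL5 and CCL28 entered the test only through the group where they are high, so their calls are descriptions rather than support. CXCL12, the ligand of CXCR4, had 23.8, 24.8 and 7.31 FPKM in the sensitive and 0.0484, 0.169 and 0.0529 FPKM in the resistant libraries, and it fell with a log2 fold change of -4.003 (limma adjusted p = 0.000171). CX3CL1 (fractalkine), which like CXCL16 is made as a membrane protein, fell from 2.22 to 1.10 FPKM in the mean (log2 fold change -0.61). CCL5 (RANTES) rose from at most 0.0993 FPKM to 3.19, 2.62 and 3.01 FPKM, and CCL28 rose from 0.592 to 1.60 FPKM in the mean. Of the untested ones with a group mean of at least 1 FPKM, XCL2 had 1.12, 1.06 and 0.918 FPKM in the sensitive libraries and was listed at 0 in the resistant ones. CCL27 had 0.544, 0.419 and 2.35 FPKM in the sensitive and 0.245, 0.670 and 0.304 FPKM in the resistant libraries, which overlap.

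Of 23 receptor genes 16 were in the tables, 15 of them below 1 FPKM in every library, and the 1 tested, CCR4, passed as higher, having entered the test only through the resistant libraries. CCR4 was listed at 0 in the sensitive libraries, whereas the resistant libraries had 2.72, 2.99 and 1.22 FPKM (log2 fold change 1.68). Of the receptors of the 10 ligands, CXCR2, CCR2 and CCR6 were listed and are named after their values were seen, and CXCR1, CXCR3 and CXCR6 are not analysed here. CXCR2 did not exceed 0.0517 FPKM in any library, CCR2 was listed at 0 in all 6, and CCR6 did not exceed 0.290 FPKM.

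Of 27 cytokines, receptors and adaptors that act upstream of these chemokines, 24 were in the tables and 14 were tested, of which 8 rose, 3 fell and 3 did not pass (median log2 fold change 0.91). Of the 14, 5 entered the test only through the group where they are high, MYD88, TNF, IL17C and TNFSF10 among them. The number that rose was 4 when a mean of at least 5 FPKM was required and 13 with no filter, so it depends on the filter on low values. MYD88, the adaptor of interleukin-1 and Toll-like receptors, stood at 0.213, 0.330 and 0.597 FPKM in the sensitive and at 12.5, 10.9 and 12.5 FPKM in the resistant libraries (log2 fold change 3.24). LTB, the lymphotoxin-beta gene, rose from a mean of 4.95 to 54.4 FPKM (log2 fold change 3.22). IL18 fell from 48.9 to 4.07 FPKM, and TNFSF10, the gene of the death ligand TRAIL, fell from 7.97 to 0.0170 FPKM. TNF and IL17C, named after their values were seen, rose to means of 3.63 and 2.06 FPKM. The receptor genes in the list, also named after their values were seen, went both ways. IL17RC rose from a mean of 2.83 to 7.60 FPKM, and IL17RA fell from 8.02 to 4.68 FPKM (log2 fold change -0.66). IL1R1, at 8.35 and 2.36 FPKM, and TNFRSF1A, at 78.0 and 62.3 FPKM, did not pass. Without sensitive replicate 3 IL1R1 passed as lower (log2 fold change -1.88).

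All 19 genes of NF-kB subunits and regulators were tested, of which 10 rose, 3 fell and 6 did not pass (median log2 fold change 0.54). These 13 of 19 are close to the 67.7% of all tested genes that passed. When 1 library was left out, the number that rose was 7 to 11 and the number that fell 2 to 3. With the replicate block 9 rose. The 4 with the largest changes rose. The 3 that fell, named after their values were seen, were BCL3, CHUK and NFKBID, with log2 fold changes of -0.93, -0.71 and -0.62. NFKBIZ, a nuclear IkB protein that promotes a subset of NF-kB targets, had 2.98, 2.34 and 2.52 FPKM in the sensitive and 42.4, 43.2 and 36.6 FPKM in the resistant libraries (log2 fold change 3.53, limma adjusted p = 1.17e-06). TRAF1, an adaptor of TNF receptors, TNFAIP3, which encodes the inhibitor A20, and RELB, a subunit of the alternative pathway, had log2 fold changes of 2.76, 2.67 and 2.14, and TRAF1 entered the test only through the resistant libraries. The list thus holds activators and inhibitors that rose together. In limma's test against a 1.5-fold change 6 of the 19 passed, all as higher, beside 37.3% of all tested genes.

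On the interferon route to CXCL10, 13 of 17 listed genes were tested, of which 6 rose, 5 fell and 2 did not pass (median log2 fold change 0.37), beside 35.2% higher and 32.5% lower among all tested genes. IRF7, which entered the test only through the resistant libraries, was listed at 0 in the sensitive libraries and stood at 7.57, 8.04 and 6.68 FPKM in the resistant ones. IRF1 and SOCS3, an interferon-induced factor and a feedback inhibitor of cytokine signalling, rose with log2 fold changes of 2.04 and 1.53. IRF9, a subunit of the factor that carries type I interferon signals, fell with a log2 fold change of -1.53. The count of 5 lower genes was 3 without resistant replicate 1, resistant replicate 2 or sensitive replicate 2. CXCL10 itself had 1 read in the 6 libraries together.

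Chemokine transcripts are short-lived, and 10 genes that act on their decay or stability were all tested. Of these, 5 rose, 0 fell and 5 did not pass in limma (median log2 fold change 0.55). The share that passed was below the 67.7% of all tested genes. ZFP36L1, an RNA-binding protein of AU-rich elements, had 8.90, 8.96 and 10.7 FPKM in the sensitive and 99.0, 99.5 and 96.9 FPKM in the resistant libraries (log2 fold change 3.25). ZC3H12A, the endonuclease Regnase-1, rose with a log2 fold change of 2.27, and the decapping enzyme gene DCP2 and the deadenylase scaffold gene CNOT1 with 0.84 and 0.74. The count of 5 was 3 without resistant replicate 3, when DCP2 and CNOT1 lost their calls, and 2 genes passed as lower without sensitive replicate 3. Whether transcripts of the 10 chemokines were more stable was not measured.

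Among 16 genes that process or bind chemokines 13 were tested, of which 5 rose, 5 fell and 3 did not pass (median log2 fold change 0.35), beside 67.7% of all tested genes that passed. VCAN, GPC3, MMP1 and DPP4 entered the test only through the group where they are high. VCAN, a proteoglycan of the matrix, rose from at most 0.0525 FPKM to 41.9, 52.4 and 51.8 FPKM. GPC3, a cell-surface proteoglycan used as a marker of hepatocellular carcinoma, fell from 25.6, 27.6 and 25.0 FPKM to 0.0301, 0.240 and 0.0399 FPKM. The collagenase gene MMP1 was listed at 0 in the sensitive libraries and reached 3.11 to 4.06 FPKM in the resistant ones, and the protease gene CTSC fell with a log2 fold change of -1.60. Of the 2 proteases that shed CXCL16, named after their values were seen, ADAM10 fell (log2 fold change -1.14, limma adjusted p = 0.0265) and ADAM17 did not pass (0.08, limma adjusted p = 0.698). The call of ADAM10 was lost without any 1 library other than sensitive replicate 3, with limma adjusted p-values of 0.0570 to 0.0927.

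Markers of other cells that make or answer chemokines were mostly near 0. Of 11 listed leukocyte markers PTPRC and TYROBP were at 0 in all 6 libraries, and the list's sum of 254 to 273 FPKM in the sensitive libraries was mostly LYZ, the lysozyme gene, at 238 to 249 FPKM, against a sum of 2.78 to 5.78 FPKM in the resistant ones. All 3 tested leukocyte markers, LYZ, S100A9 and CD68, passed as lower, S100A9 having entered the test only through the sensitive libraries. Of 9 fibroblast markers the 1 tested, ACTA2, passed as higher, having entered the test only through the resistant libraries. It stood there at 2.77, 3.22 and 2.30 FPKM after values listed at 0. The sum of the fibroblast markers was 0.938 to 1.85 FPKM in the sensitive and 2.36 to 3.46 FPKM in the resistant libraries. PDGFRB, the next by mean, stood at 1.22, 1.09 and 0.526 FPKM in the sensitive libraries and at most at 0.0354 FPKM in the others. Of 8 endothelial markers the 1 tested, ESAM, passed as higher, at 166 to 200 FPKM in the resistant libraries, and made up most of a sum of 167 to 202 FPKM against 1.01 to 1.83 FPKM. ROBO4, the next by mean, stood at 0, 0 and 0.00601 FPKM in the sensitive and 1.78, 1.25 and 0.856 FPKM in the resistant libraries, which are higher as for ESAM. PECAM1, named after its values were seen, went the other way. It had 0.185, 0.112 and 0.0386 FPKM in the sensitive libraries and at most 0.0208 FPKM in the resistant ones. With no filter on low values 3 endothelial markers passed as higher and 0 as lower, and of the fibroblast markers 1 passed as higher and 2 as lower. KDR, a defining endothelial gene, was at 0 in all 6 libraries. PTPRC, TYROBP and KDR are named because they define their cell types and were at 0, after their values were seen. Of 10 hepatocyte markers 9 were tested and all 9 fell (median log2 fold change -5.16), the furthest being SERPINA1, APOB, APOA1 and FGB with log2 fold changes of -7.41, -6.80, -6.79 and -5.49. Of the 9, 6 entered the test only through the sensitive libraries, so their calls are descriptions rather than support. The part of these marker differences in the chemokine levels was not tested.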

How the data were processed

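For each library the authors deposited a gene table whose unit was taken from its values to be FPKM, or RPKM, which cannot be told apart here. The submitters' processing notes name cutadapt (read trimming) and HISAT2 (alignment). Not given in the sources used here are the counting program, build, annotation and use of strand. A gene listed at 0 may be one whose estimate failed. Genes that reached 1 FPKM in 3 or more libraries were tested with limma 3.58.1 (limma-trend, R 4.3.3) on log2(FPKM + 1), a pseudocount of 1, with group as the only term, 4 residual and 2.75 prior degrees of freedom, and Benjamini-Hochberg adjustment over all tested genes. The fit was tested on simulated data. Counts of reads behind a value were found from its smallest step in Python 3.11.15. Sequences came from the RefSeq promoter table, and protein sequences were not used here. The members and the gene lists were chosen with earlier results of these data known. All 10 members are named, of each other list up to 4 genes that passed, by size of change, or with fewer than 2 passing the 2 of highest mean, and of other chemokines, receptors and chromosome 4 neighbours each gene with a group mean of at least 1 FPKM. Genes named outside this rule are marked where they stand. Alternatives changed the scaling, variance model, filter, pseudocount, replicate block, tested fold and the libraries included.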

Additional observations from a re-analysis of the deposited data

How the results depend on the processing

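The count of 4 chemokine genes called higher held in all 15 alternatives, and no scaling moved the median of all genes by more than 0.1. The number of all genes called was 7920, and it was 4973 with a mean of at least 5 FPKM required, 4357 in a test against a 1.5-fold change, and 6675 to 9442 when 1 library was left out, the highest without sensitive replicate 3. The chemokine genes called lower numbered 1 in place of 3 with the mean of at least 5 FPKM, since CXCL5 and CXCL6 are then not tested, and 3 to 4 when 1 library was left out. The log2 fold change of CCL20 was -0.39 to 0.39 over left-out libraries, reversing to -0.39 without sensitive replicate 3 and to -0.01 without resistant replicate 3. With the replicate block 7193 genes were called, and on the interferon route 3 genes in place of 5 passed as lower. Deviations of same-numbered libraries correlated at -0.42, 0.07 and -0.23, so the numbers were not taken to pair the libraries. With 3 libraries a group, an exact permutation test of 1 gene cannot go below 0.1. CCL2 and CXCL10 are limited by their few reads.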
